A study of Mus musculus with 30 samples.

Results

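A set of 10 genes of the piRNA pathway was described by RNA level and mRNA half-life in spermatogonial stem cell (SSC) lines. They are *Piwil2*, *Piwil4*, *Pld6*, *Asz1*, *Tdrkh*, *Mov10l1*, *Tdrd1*, *Tdrd5*, *Tdrd9* and *Mael*. They were taken from a list of names without a filter on their values, but the list was chosen with earlier results of these data known. All 10 were among the 13904 genes with an RNA level, and 3 of them (*Piwil2*, *Tdrd1* and *Mael*) were among the 5806 transcripts with a half-life. The SSC lines were derived from mouse testes on postnatal day 7 and expanded on fibroblast feeders in medium with GDNF, FGF2, EGF and LIF. Every line used here carries the *Nanos2* TAG allele, in which the RNA-binding protein NANOS2 is fused to V5, Myc, His and EGFP tags. RNA-seq was performed on 1 library of a Nanos2TAG/+ line (line 4) and 1 library of a Nanos2TAG/TAG line (line 5), and each genotype is 1 line. SLAM-seq covered the same lines with 12 libraries each, at chase times of 0, 30, 60, 120, 540 and 1440 min after removal of the label 4-thiouridine, and 1 half-life per transcript and line was deposited. The labels also list 4 CRAC libraries, which were not analysed here. A line without NANOS2 or without the tag is not in these comparisons.

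piRNAs are small RNAs of germ cells that guide PIWI proteins to transposon transcripts and transposon loci. Precursor RNAs are unwound and cut at the surface of mitochondria, loaded onto a PIWI protein and trimmed, and Tudor-domain proteins hold the participants together in perinuclear granules called nuage. In the male mouse germline the pathway silences retrotransposons, and loss of most of its factors leads to sterility. In fetal germ cells PIWIL2 (MILI) feeds an amplification cycle that loads PIWIL4 (MIWI2), which directs DNA methylation in the nucleus.

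The libraries were compared for depth and cell type markers. The RNA levels are FPKM, that is reads per kilobase of gene length, scaled to a depth value of each library. For 100% of the 13884 genes whose length could be looked up, whole numbers of reads were recovered from the FPKM. The totals were 10977831 reads for the TAG/+ line and 11656606 reads for the TAG/TAG line. The depth values that gave whole reads were 10908790 (TAG/+) and 11738620 (TAG/TAG), which do not equal these totals. Genotype, line and RNA extraction reagent (QIAzol for TAG/+, Trizol for TAG/TAG) differ together between the libraries, so differences between them have no replicate check and no p-value is given. *Nanos2* itself had an FPKM of 27.5 in the TAG/+ line and 23.8 in the TAG/TAG line. Markers of undifferentiated spermatogonia, 10 genes in all, had a summed FPKM of 728 (TAG/+) and 1168 (TAG/TAG). They ranged from *Id4* (mean 1.68) to *Sall4* (203), with *Ret*, *Etv5* and *Bcl6b* higher by over 2-fold in the TAG/TAG line. Of these 10 markers, 4 were higher and 6 were lower in the TAG/TAG line, with a median difference of -0.09 on the log2(FPKM + 0.1) scale. By the study's methods, the RNA came from SSCs sorted with a scatter gate set to leave out residual feeder cells. Of 10 feeder fibroblast markers, 8 had an FPKM, with a sum of 331 and 384, from *Fbn1* (mean 1.72) to *Fn1* (267), and *Dcn* was higher by over 2-fold in the TAG/TAG line (4.44 and 10.2). Of 5 Sertoli cell markers, 4 had an FPKM, with a sum of 9.27 and 40.7, from *Gata4* (mean 1.49) to *Wt1* (11.1), and *Amh* was not analysed here. All 4 of these were higher by over 2-fold in the TAG/TAG line. Differentiating spermatogonia markers, 6 genes, had a sum of 259 and 190, from *Dmrtb1* (mean 4.27) to *Sohlh2* (149). Of 8 meiotic markers, 4 had an FPKM, with a sum of 36.0 and 34.5, from *Sycp3* (mean 2.61) to *Sycp1* (14.3). General germ cell markers (4 of 5) had a sum of 264 and 319.9, from *Dppa3* (mean 7.33), which was higher by over 2-fold in the TAG/TAG line, to *Tex101* (153). The part of these marker differences in the results on the piRNA pathway was not tested. In these bulk libraries fewer cells of a type and less RNA per cell cannot be told apart.

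All 10 genes were expressed in both lines. Their median FPKM was 41.1 in the TAG/+ line (range 7.24 to 238) and 47.9 in the TAG/TAG line (range 1.43 to 300.2). The median FPKM of all genes was 10.2 and 10.5, respectively, and 9 of the 10 genes had a mean FPKM above that of the median gene. The exception was *Tdrd9*, at percentile 32.8 of all genes by mean FPKM (43.4 in the TAG/+ line and 14.9 in the TAG/TAG line).

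Of the PIWI proteins, *Piwil2* had the highest FPKM of the 10 genes. It was 238 in the TAG/+ line, from 5673 reads, and 300.2 in the TAG/TAG line, from 7687 reads, at percentile 97.3 of all genes by mean FPKM. *Piwil4*, the nuclear effector of the fetal pathway, had an FPKM of 15.1 from 423 reads in the TAG/+ line and 17.2 from 516 reads in the TAG/TAG line. On the FPKM scale *Piwil2* thus exceeded *Piwil4* by 15.7-fold in the TAG/+ line and by 17.5-fold in the TAG/TAG line. With reads divided by the length of a single transcript per gene, the ratios were 9.01 and 10.01. *Piwil1* (MIWI), which in the testis acts in meiotic and later cells, was at an FPKM of 5.77 (TAG/+) and 9.64 (TAG/TAG). *Piwil2* was 41.3-fold and 31.1-fold above it by FPKM, and 25.3-fold and 19.1-fold by the single transcript length.

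Of the factors that make piRNAs at the mitochondrial surface, *Mov10l1* had the highest level. It encodes an RNA helicase that binds piRNA precursors, and its FPKM was 77.4 in the TAG/+ line, from 1783 reads, and 93.7 in the TAG/TAG line, from 2322 reads. *Pld6* encodes the mitochondrial nuclease that cuts precursors (the homolog of fly Zucchini), and its FPKM was 15.7 from 231 reads and 18.9 from 299 reads. *Asz1* encodes GASZ, a scaffold of the outer mitochondrial membrane, and its FPKM was 29.6 from 370 reads and 34.1 from 459 reads. These 3 genes were slightly higher in the TAG/TAG line, with values of 0.27 (*Mov10l1*), 0.26 (*Pld6*) and 0.20 (*Asz1*) for the difference on the log2(FPKM + 0.1) scale. *Tdrkh*, whose product anchors PIWI proteins at mitochondria during trimming, went the other way, with an FPKM of 27.8 from 713 reads in the TAG/+ line and 16.9 from 467 reads in the TAG/TAG line.

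Of the Tudor scaffolds, *Tdrd1* and *Tdrd5* were well expressed and *Tdrd9* was not. *Tdrd1* encodes a partner of PIWIL2 in nuage and had an FPKM of 52.6 from 2872 reads in the TAG/+ line and 70.9 from 4167 reads in the TAG/TAG line. *Tdrd5* had 91.2 from 2293 reads and 61.7 from 1669 reads. *Tdrd9* encodes a helicase with a Tudor domain that acts with PIWIL4, and it had 7.24 from 179 reads and 1.43 from 38 reads. *Mael* encodes a nuage protein of the same fetal granules, and its FPKM was 163 from 2879 reads and 177 from 3367 reads, second to *Piwil2* in both lines. By FPKM, *Mael* exceeded *Tdrd9* by 22.5-fold in the TAG/+ line and by 124-fold in the TAG/TAG line. By the single transcript length the ratios were 50.03 and 276.

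The order of the genes by FPKM was much the same in both lines. *Piwil2*, *Mael*, *Asz1* and *Tdrd9* held ranks 1, 2, 6 and 10 in each. *Mov10l1*, *Tdrd5* and *Tdrd1* held ranks 3 to 5, with *Tdrd5* first of them in the TAG/+ line and last in the TAG/TAG line. *Tdrkh*, *Pld6* and *Piwil4* held ranks 7 to 9, with *Tdrkh* likewise first and then last. The FPKM range of *Tdrd5* over the lines overlapped those of *Mov10l1* and *Tdrd1*. By FPKM, *Mov10l1* was above *Tdrd1* in each line and their values did not overlap. By the single transcript length this order was reversed. *Tdrd1* was then at 53.9 (TAG/+) and 72.6 (TAG/TAG), and *Mov10l1* at 40.3 and 48.8. *Pld6* was above *Piwil4* by FPKM in each line, but the FPKM values of these genes and of *Tdrkh* overlapped between the lines. By the single transcript length, *Pld6* (22.3 in TAG/+ and 26.9 in TAG/TAG) was above *Asz1* (19.5 and 22.5). *Tdrkh* (11.5 and 6.99) was then below *Piwil4* (11.7 and 13.3) in each line.

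Levels between genes also depend on the gene length behind FPKM. The length behind these FPKM values is an average over all transcripts that GENCODE M21 lists for the gene, short fragments included. For *Piwil2* this mean was 2181 bases over 3 transcripts, whereas the coding transcript with the complete 3′ end has 4916 bases. When the same reads were divided by the length of a single coding transcript (the principal one by APPRIS, if there was one), *Piwil2* was at 106 and 133 in the TAG/+ and TAG/TAG line. *Mael* was then the highest, at 171 and 186. The level of *Tdrd9* was 3.41 and 0.673 by this measure and remained the lowest of the 10. The differences between the lines are within a gene and do not change with its length.

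**Figure D1:**
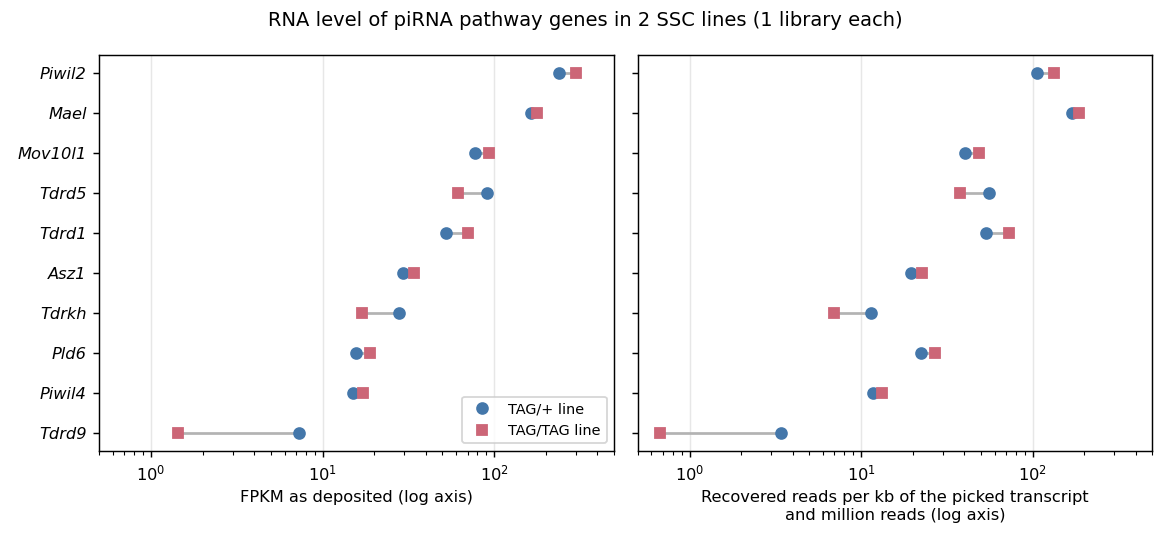
RNA level of the 10 genes in the TAG/+ line (circles) and the TAG/TAG line (squares), 1 library each, as deposited FPKM (left) and as reads per kilobase of 1 transcript per gene, scaled to depth (right), both on log axes. *Piwil2* was the highest on the left and *Mael* on the right, and *Tdrd9* was the lowest on both.

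NANOS2 was described in the study as binding a motif of 7 bases in 3′ UTRs, so the annotated 3′ UTRs of the 10 genes were searched for its 4 spellings on the sense strand. These are AUGAAAU, the variant AUGAAUU, the variant AUUAAAU and the variant AUUAAUU. Only *Tdrd9* and *Tdrkh* had a match, 1 each. Of 12453 genes with an FPKM and an annotated 3′ UTR, 38.7% had at least 1 match. The 3′ UTRs of the 10 genes were short, with a median of 467.5 nucleotides against 1044 for all genes. The matches were read from the genome (GRCm38.p6), with 29 bases on the plus strand, with the motif in capitals and T in place of U.
*Tdrd9*, chr12:112068411-112068439, exon 36 of 36: ggggtcacagtATTAAATacttggcaaaa
*Tdrkh*, chr3:94431838-94431866, exon 14 of 14: cagtacttagaATTAAATacaaaatgcat

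Both genes have the same spelling, AUUAAAU. In *Tdrd9* (chromosome 12, 111971559 to 112068854, plus strand) the match begins 142 nucleotides after the stop codon in a 3′ UTR of 574 nucleotides. Of 1299 genes with a 3′ UTR within 20% of this length, 22.7% had a match. In *Tdrkh* (chromosome 3, 94413273 to 94434668, plus strand) it begins 1074 nucleotides after the stop codon in a 3′ UTR of 3893 nucleotides, and 75.8% of genes with a similar length had a match. *Piwil2* (chromosome 14, 70372477 to 70429383, minus strand) had 0 matches in 1803 nucleotides, where 48.8% of genes with a similar length had one. *Tdrd1* (chromosome 19, 56826209 to 56870012, plus strand) had 0 in 1310 nucleotides, against 40.2%. *Mael* (chromosome 1, 166201201 to 166238747, minus strand) has the shortest 3′ UTR of the 10, 163 nucleotides. This is a search for letters in the annotation and not for binding, since CRAC reads were not analysed here.

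*Tdrd9* and *Tdrkh* were also 2 of the 3 genes with a lower FPKM in the TAG/TAG line, and neither had a half-life. Whether the matches bear on these levels was not tested. *Tdrd9* had only 38 reads in the TAG/TAG line, and the reads of *Tdrkh* are uncertain because of an overlapping gene, as given below. The remaining genes without a match were *Piwil4* (chromosome 9, 14696230 to 14740733, minus strand), *Pld6* (chromosome 11, 59783897 to 59787645, minus strand) and *Asz1* (chromosome 6, 18050964 to 18109061, minus strand). *Mov10l1* (chromosome 15, 88982909 to 89055152, plus strand) and *Tdrd5* (chromosome 1, 156255296 to 156303664, minus strand) had none either. Their 3′ UTRs were between 275 and 580 nucleotides long.

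**Figure D2:**
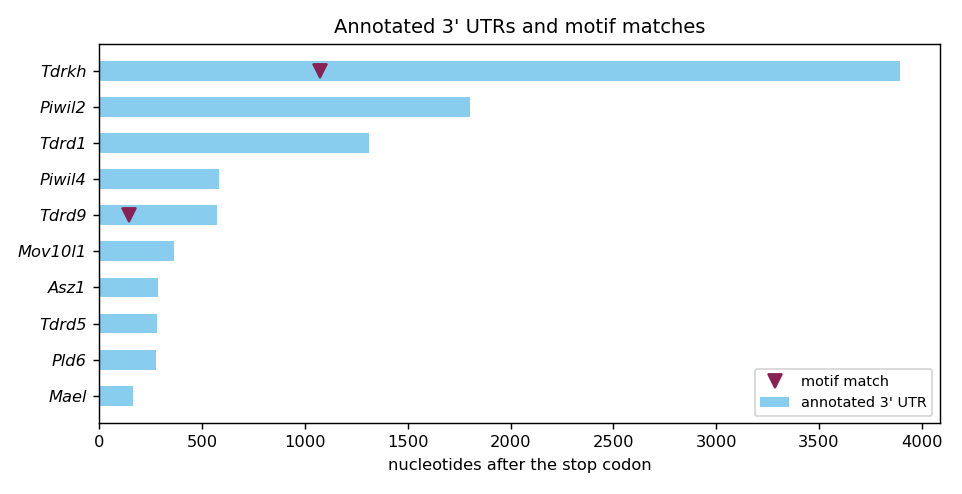
Length of the annotated 3′ UTR of each of the 10 genes, in nucleotides after the stop codon, with a triangle at each match to 1 of the 4 spellings of the motif. *Tdrkh*, with 3893 nucleotides, and *Tdrd9*, with 574, have 1 match each, and the other 8 genes have 0.

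Comparison of the lines asks whether the level of these mRNAs differed with the second tagged allele, in lines that also differ in origin. Most of the 10 genes had similar levels. Of the 10, 0 were higher by over 2-fold in the TAG/TAG line, against 13.5% of all genes, and 1, *Tdrd9*, was lower by over 2-fold, against 9.59% of all genes. Among genes with a mean FPKM of at least 1, these shares were 11.7% and 8.67%. All genes were also split by mean FPKM into 10 bins of equal size. In bins 6 to 10 from the lowest, which hold all of these genes but *Tdrd9*, 2.59% to 8.42% were higher and 2.23% to 7.19% lower. In bin 4, which holds *Tdrd9*, the shares were 17.5% and 11.9%. Counts of 0 and 1 in 10 are close to the background at these levels and are not a result about the pathway. The FPKM was higher in the TAG/TAG line for 7 of the 10 genes and lower for *Tdrkh*, *Tdrd5* and *Tdrd9*. The median difference was 0.19 on the log2(FPKM + 0.1) scale, against 0.01 for all genes. The summed FPKM of the 10 was 718 in the TAG/+ line and 792 in the TAG/TAG line.

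The largest difference was that of *Tdrd9*, which was -2.26 on the log2 scale, with a 95% interval of -2.89 to -1.83. The interval is that of the read ratio scaled to depth, without the pseudocount that the difference includes. It is exact (Clopper-Pearson, from the reads of both libraries) and covers counting error only, not the variation between cultures. The FPKM was 5.07-fold higher in the TAG/+ line. With a pseudocount of 1 FPKM the difference was -1.76. *Sycp3*, a component of the meiotic chromosome axis, also had few reads and a lower level in the TAG/TAG line, with an FPKM of 4.59 from 54 reads against 0.632 from 8 reads. It was the only 1 of the 4 meiotic markers with an FPKM that was past 2-fold. The other 3 were similar in both lines, with a difference of 0.22 for *Sycp1*, -0.06 for *Sycp2* and 0.11 for *Hormad1* on the log2 scale. The part of meiotic cells in the difference of *Tdrd9* was not tested.

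*Tdrkh* was lower by 1.64-fold and *Tdrd5* by 1.48-fold in the TAG/TAG line. The differences were -0.71 (95% interval of counting error -0.89 to -0.55) and -0.56 (-0.66 to -0.47). Both genes overlap a gene on the opposite strand, and whether the authors counted reads by strand is not given in the sources used here. For *Tdrkh*, 2206 of 6365 stretches of 50 bases in its transcripts also occur in those of *Oaz3* on the other strand, which makes its reads uncertain. For *Tdrd5* the overlap with 4930518J20Rik covers 127 of 7054 such stretches, and for *Piwil4* that with Gm10706 covers 90 of 5477.

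The genes that were higher in the TAG/TAG line differed by less. *Tdrd1* differed by 0.43 (95% interval of counting error 0.36 to 0.50), *Piwil2* by 0.33 (0.28 to 0.38) and *Mael* by 0.12 (0.05 to 0.19). For *Piwil4* the difference of 0.18 was within counting error (-0.01 to 0.37). The median absolute difference of the 10 genes was 0.30, and that of all genes in the same bins was 0.36, where genes were split by mean FPKM into 10 bins of equal size. Differences of this size are therefore common among genes with similar levels in this pair of libraries.

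**Figure D3:**
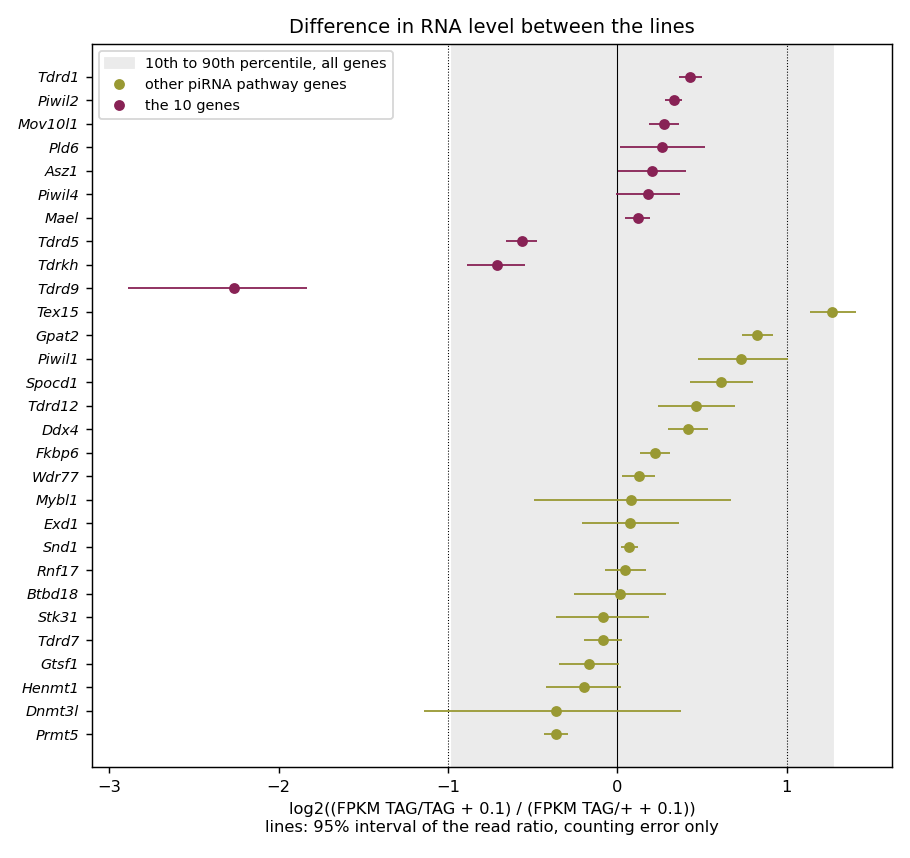
Difference in RNA level between the lines for the 10 genes (upper group) and 19 other piRNA pathway genes (lower group), as log2 of the ratio of FPKM + 0.1, where values above 0 are higher in the TAG/TAG line. Horizontal lines are 95% intervals of counting error, the grey band spans the 10th to 90th percentile of all genes, and dotted lines mark 2-fold. *Tdrd9* lies below the band at -2.26, and the other 9 genes lie within it.

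The other genes of the pathway, from a list of 23 put together by function, were described in the same way. Of the 23, 19 had an FPKM, and *Tdrd6*, *Pnldc1*, *Morc1* and *Dnmt3c* were not analysed here. Of the 19, 1 was higher by over 2-fold in the TAG/TAG line and 0 were lower, beside the 13.5% and 9.59% of all genes. As given above, these shares are mostly smaller among genes of higher level. Counts of 1 and 0 in 19 are close to this background and are not a result about the pathway. The median difference was 0.08. The gene past 2-fold was *Tex15*, whose product acts with PIWIL4 in nuclear silencing, with an FPKM of 14.5 from 623 reads in the TAG/+ line and 35.1 from 1621 reads in the TAG/TAG line. *Spocd1*, of the same nuclear step, had 18.9 and 28.9.

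The 5 highest levels by mean FPKM in this list were those of *Snd1*, *Prmt5*, *Fkbp6*, *Wdr77* and *Gpat2*. *Snd1*, a Tudor-domain nuclease, had an FPKM of 431 in the TAG/+ line and 453 in the TAG/TAG line. *Prmt5* and *Wdr77*, which form the enzyme that methylates arginines of PIWI proteins and of many other proteins, had 296 and 230 (*Prmt5*) and 68.3 and 74.5 (*Wdr77*). *Fkbp6*, a co-chaperone of the pathway, had 130 and 151. *Gpat2*, a mitochondrial protein that binds PIWIL2, had 50.6 and 89.8. Further down the list, with other genes in between, *Ddx4* (VASA), the helicase of nuage, had 31.0 and 41.4.

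The 5 lowest levels were those of *Piwil1*, whose values stand beside *Piwil2*, and of 4 genes at which the lines differed by no more than counting error. *Dnmt3l*, a cofactor of de novo DNA methylation, had an FPKM of 2.67 from 35 reads in the TAG/+ line and 2.05 from 29 reads in the TAG/TAG line. *Mybl1* (A-MYB), which drives pachytene piRNA precursors, had 2.36 from 49 reads and 2.51 from 56 reads. *Exd1* had 4.45 and 4.69, and *Stk31*, which has a Tudor domain, had 7.86 and 7.41.

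Half-lives were long for the 3 genes that had them. In SLAM-seq, labeled RNA is recognized by base conversions in the reads, and its decline over the chase was fitted as first-order decay. Which half-life set belongs to which line was taken from the name of its table. *Mael* had a half-life of 539.9 min in the TAG/+ line and 603 min in the TAG/TAG line. *Tdrd1* had 468 and 497 min and *Piwil2* had 409 and 448 min. The median of all transcripts was 224 min in the TAG/+ line (lower quartile 162, upper quartile 289 min) and 226 min in the TAG/TAG line (159 and 299.8 min). All 3 mRNAs were above the upper quartile in each line, at percentiles from 90.4 (*Piwil2*, TAG/TAG) to 96.5 (*Mael*, TAG/TAG). Both half-lives were above 400 min for all 3, but this limit was chosen after these values were seen and lies below all of them. Of all transcripts, whatever their level, 8.22% were above it in both lines.

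By first-order decay with these half-lives, 15.7% of *Mael* mRNA would be left after 1440 min of chase in the TAG/+ line and 19.1% in the TAG/TAG line. For *Tdrd1* the values were 11.9% and 13.4%, and for *Piwil2* 8.73% and 10.8%. Of a transcript with the median half-life, 1.16% and 1.20% would be left. The deposited half-lives come without an error of the fit, and the depth behind them is unknown, so the precision of a single value is unknown.

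From the lowest to the highest bin of mean FPKM, the median half-life went from 124 to 302 min in the TAG/+ line and from 151 to 314 min in the TAG/TAG line, so the 3 mRNAs were also set beside transcripts of similar level. The highest bin, with 953 half-lives, holds *Piwil2* and *Mael*. *Mael* exceeded the median of this bin by 1.79-fold and 1.92-fold and *Piwil2* by 1.36-fold and 1.43-fold. In the next bin, which holds *Tdrd1*, the median of 918 transcripts was 245 and 251 min, and *Tdrd1* exceeded it by 1.91-fold and 1.98-fold. Within its bin, *Piwil2* was at percentile 74.2 in the TAG/+ line and 74.3 in the TAG/TAG line, and *Tdrd1* was at 95.2 and 93.8. *Mael* was at percentile 91.2 of its bin in the TAG/TAG line.

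**Figure D4:**
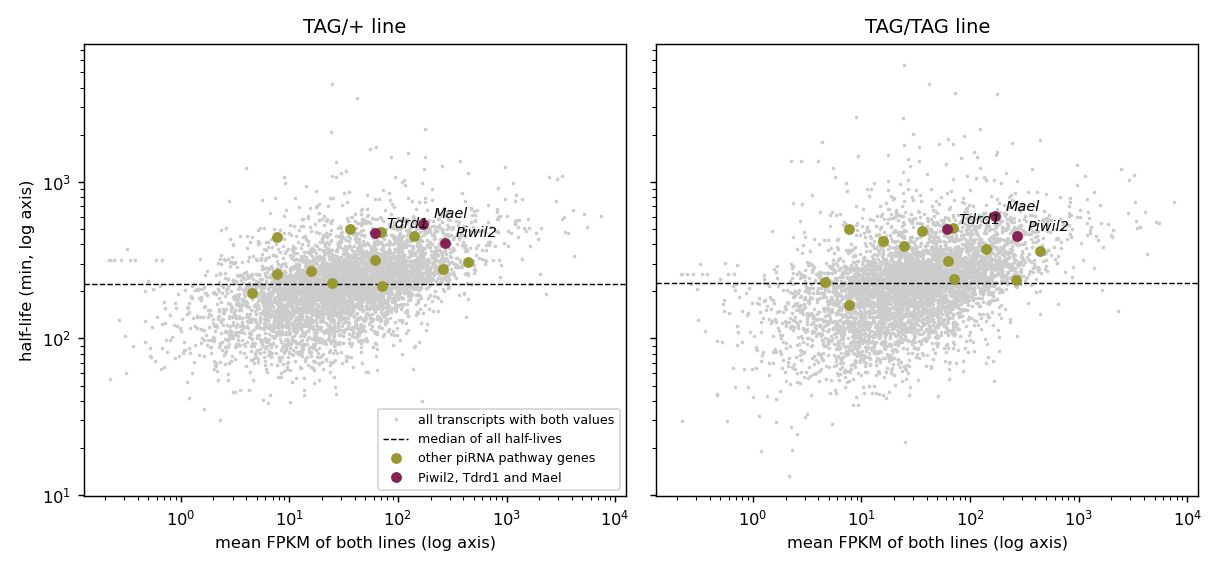
Half-life against mean FPKM of both lines, on log axes, for all 5152 transcripts with both values (grey), with *Piwil2*, *Tdrd1* and *Mael* named and the 12 other piRNA pathway genes in a second color, in the TAG/+ line (left) and the TAG/TAG line (right). The dashed line is the median of all half-lives (224 and 226 min), and the 3 named genes lie above it in both lines.

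Between the lines, the 3 half-lives differed little. They were longer in the TAG/TAG line by 1.12-fold (*Mael*), 1.10-fold (*Piwil2*) and 1.06-fold (*Tdrd1*), and 54.1% of all transcripts were longer in that line. None of the 3 was past 1.5-fold, and 20.7% of all transcripts were. With only 3 genes, this count is close to that share and is not a result about them. The order *Mael*, *Tdrd1*, *Piwil2* was the same in each line. The SD of the half-lives of the 2 lines was 44.6 min for *Mael*, 20.4 min for *Tdrd1* and 27.6 min for *Piwil2*.

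The other 7 genes had no half-life. They include *Mov10l1* and *Tdrd5*, which lie in the second highest bin of mean FPKM, where 66.0% of genes had a half-life. For *Asz1* the share in its bin was 59.4%, for *Pld6* and *Tdrkh* 54.5%, for *Piwil4* 44.7% and for *Tdrd9* 20.6%. The filter that left 5806 transcripts is not given in the sources used here.

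Of the other pathway genes, 12 had a half-life. In both lines, 9 of them were above the median of all transcripts and 0 were below it, and 9 were above the median of their bin of mean FPKM. The share of all transcripts that lie above these medians in both lines was not computed, so the counts are not a result about the pathway. *Gpat2* had 477 min in the TAG/+ line and 509 min in the TAG/TAG line, *Ddx4* had 498 and 483 min, and *Stk31* had 443 and 499 min. These 3 were above 400 min in both lines. *Fkbp6* had 452 and 375 min, *Gtsf1*, a zinc finger cofactor of PIWI proteins, had 317 and 314 min, and *Snd1* had 307 and 360.1 min. *Prmt5* (279.7 and 237 min) and *Wdr77* (215 and 239.8 min) were below the medians of their bins in both lines. *Exd1* had 195 and 229 min.

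Half-lives of 3 of these 12 genes differed by over 1.5-fold between the lines. *Tex15* had 226 min in the TAG/+ line and 391 min in the TAG/TAG line, and *Tdrd12*, whose product acts with PIWIL2 in the loading of PIWIL4, had 269 and 417 min. *Piwil1* had 256 and 164 min. Thus 2 were longer and 1 was shorter in the TAG/TAG line, and among all transcripts 10% were longer and 10.7% were shorter by this fold. *Tex15* also had the higher FPKM in the TAG/TAG line, and *Piwil1* had the higher FPKM (9.64 against 5.77) with the shorter half-life.

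**Figure D5:**
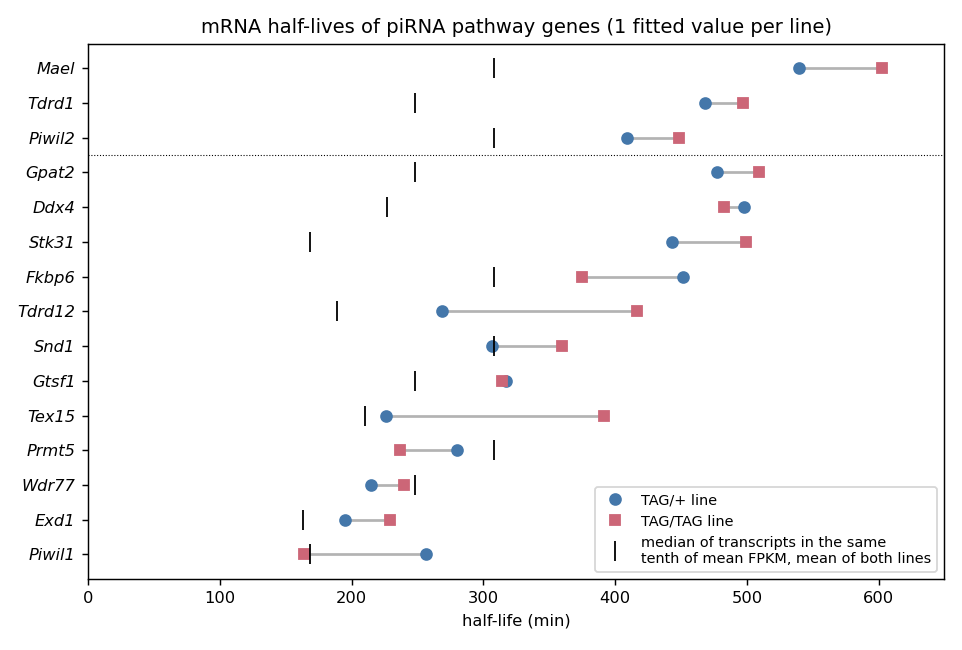
Half-lives in minutes of *Mael*, *Tdrd1* and *Piwil2* (above the dotted line) and of 12 other piRNA pathway genes (below it) in the TAG/+ line (circles) and the TAG/TAG line (squares), 1 fitted value each. Vertical ticks are the median of transcripts in the same bin of mean FPKM, and the 3 upper genes lie to the right of their ticks in both lines.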

How the data were processed

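RNA-seq (1 library per line) and SLAM-seq (12 libraries per line) values were used from 3 deposited tables. The FPKM values were deposited by the authors from ribosomal RNA-depleted total RNA (50 bp reads), and the submitters' processing notes name kallisto and DESeq2 without a role or version. Half-lives in minutes were fitted by the authors with SlamDunk conversion rates and nls after technical replicates were collapsed. Which table holds which line was taken from the table and column names, since the labels call the half-life sets CTL and EXP.

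Whole reads were recovered from FPKM with the mean transcript length in GENCODE M21, within 0.05 of a whole number. Log2 ratios used a pseudocount of 0.1. Calls were 2-fold (FPKM) and 1.5-fold (half-life). Intervals (95%) are of the read ratio without a pseudocount and cover counting error only. Genes were split into 10 bins of mean FPKM. With simulated reads, recovery was exact for 100% of 13884 genes in each line. The simulation used the same lengths, so it checks the calculation and not the lengths behind the deposited values. 3′ UTRs were taken from GENCODE M21 after the stop codon of the APPRIS principal transcript, otherwise the coding transcript with the longest 3′ UTR, on GRCm38, the mm10 assembly that the notes name for CRAC. Motif matches were written from the genome with samtools 1.23.1.

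The 10 genes and all lists were chosen with earlier results of these data known. Named were the 10 genes, those of the pathway list that were absent, among the 5 highest or 5 lowest by mean FPKM, past 2-fold or with a half-life, the highest and lowest of each marker list, and *Nanos2*. *Spocd1*, *Sycp2*, *Hormad1*, *Ret*, *Etv5*, *Bcl6b* and *Dcn* were named after their values were seen. Alternatives were another pseudocount, a limit of FPKM 1, other scalings, each line alone, 20 bins, a limit of 540 min and, chosen after seeing the data, another transcript length. Python 3.11.15, numpy 2.4.6, pandas 2.3.3 and scipy 1.17.1 were used.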

Additional observations from a re-analysis of the deposited data

How the results depend on the processing

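With a pseudocount of 1, only genes of mean FPKM 1 or more, equal sums of FPKM or the median difference set to 0, the counts of the 10 genes past 2-fold stayed at 0 higher and 1 lower, and the differences of all 10 kept their direction. Equal sums moved the median of all genes by 0.08 on the log2 scale. The median FPKM percentile of the 10 genes was 78.6. It was 76.5 to 79.5 with 1 line left out, 76.3 with the limit of FPKM 1, and 82.5 with the length of 1 transcript per gene. The median half-life of the 3 genes with both lines averaged was 483 min, which was 259.9 min above all transcripts. With half-lives limited to 540 min, which leaves out *Mael*, it was 456 min and 239.7 min above. Against transcripts in the same of 10 bins of mean FPKM the difference was 234 min, and in the same of 20 bins 201 min. Half-lives divided by the median of the line left 0 of the 3 past 1.5-fold. No paired analysis was possible because each line has 1 RNA-seq library and 1 half-life per transcript. Genotype, line and culture cannot be told apart. *Tdrd9* rests on 38 reads in the TAG/TAG library.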
